A study of Mus musculus with 3 samples.

Results

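The genes described here are the mouse vomeronasal type 2 receptors (Vmn2r) and the trace amine receptors (Taar), 2 families of chemosensory receptors that sit in tandem arrays. Members were the protein-coding genes of the mm10 assembly whose symbol is Vmn2r followed by a number or begins with Taar and a number. This gave 138 genes, 123 Vmn2r and 15 Taar. Vmn2r122 has no usable chromosome position in the gene table, so 137 of 21775 placed protein-coding genes were analysed. Around each gene a window of 50 kb on either side was drawn, and overlapping windows were merged into 52 windows that span 11.9 Mb. A peak was counted once, in the window that held its summit. Windows less than 1 Mb apart were grouped into 19 arrays. Chromosome 7 carries 52 of the members, chromosome 17 carries 31 and chromosome 10 carries 23, which include the whole Taar array.

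The study used CUT&Tag, in which an antibody directs the Tn5 transposase to cut and tag DNA near a bound protein. The antibody was a mouse polyclonal against MEIS2, a homeodomain transcription factor. The tissue was the lateral ganglionic eminence, the embryonic source of striatal neurons, dissected at embryonic day 14.5 from wild-type CD1 mice. Libraries came from 100000 cells each: MEIS2 replicate 1, MEIS2 replicate 2 and a library with no antibody, all from untreated tissue of the same strain and age. The labels do not say whether the MEIS2 libraries came from different embryos or litters, so their spread may be technical. With 1 control library no test was run across libraries: an exact permutation of the 3 libraries cannot go below a p of 1 in 3. Intervals below are 95% exact intervals and cover counting error only.

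Vmn2r proteins are G-protein-coupled receptors of basal vomeronasal sensory neurons, where they signal through the Go alpha subunit Gnao1 and detect peptides and proteins such as pheromones and urinary proteins. Most such neurons choose 1 variable receptor and add a receptor of the Vmn2r1 to Vmn2r7 group. Taar receptors detect volatile amines in the main olfactory epithelium, except Taar1, which acts in monoaminergic regions of the brain. Neither family is known for a role in the embryonic striatum. Expression was not measured in these libraries, so the silence of the clusters in this tissue is background and not a result.

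The promoter sequences below show the members and the neighbour on which the results at gene starts turn. Each runs from 250 bases before to 50 bases after an annotated start, and comes from RefSeq on GRCm38.p6, the assembly that mm10 names. Capitals mark TGACAG, the core letters bound by MEIS proteins, or its reverse complement CTGTCA. Vmn2r29 has 2 annotated starts. The upstream start (chr7:7278240-7278539, minus strand) was the 1 member promoter under a peak, and it is GC-rich. The downstream start (chr7:7247279-7247578, minus strand) was under no peak, and it has the low GC content typical of the family. Vmn2r69 (chr7:85415627-85415926, minus strand) is the gene with most peaks around it. Taar7e (chr10:24037364-24037663, plus strand) shows a match shared by several Taar7 copies. Stx7 (chr10:24149039-24149338, plus strand), a syntaxin gene of endosomal fusion that flanks the Taar array, is a non-receptor neighbour with a peak in both MEIS2 libraries.

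Vmn2r29, upstream start: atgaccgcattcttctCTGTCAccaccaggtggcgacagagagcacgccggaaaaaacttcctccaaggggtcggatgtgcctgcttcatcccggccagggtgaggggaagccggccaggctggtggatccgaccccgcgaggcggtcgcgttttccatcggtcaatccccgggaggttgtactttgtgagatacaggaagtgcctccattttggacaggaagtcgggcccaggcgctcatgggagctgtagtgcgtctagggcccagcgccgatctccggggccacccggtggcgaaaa
Vmn2r29, downstream start: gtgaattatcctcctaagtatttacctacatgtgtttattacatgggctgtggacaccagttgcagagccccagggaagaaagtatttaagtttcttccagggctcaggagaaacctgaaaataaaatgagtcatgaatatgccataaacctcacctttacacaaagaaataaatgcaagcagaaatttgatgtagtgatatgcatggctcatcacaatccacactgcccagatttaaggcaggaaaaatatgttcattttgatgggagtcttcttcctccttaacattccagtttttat
Vmn2r69: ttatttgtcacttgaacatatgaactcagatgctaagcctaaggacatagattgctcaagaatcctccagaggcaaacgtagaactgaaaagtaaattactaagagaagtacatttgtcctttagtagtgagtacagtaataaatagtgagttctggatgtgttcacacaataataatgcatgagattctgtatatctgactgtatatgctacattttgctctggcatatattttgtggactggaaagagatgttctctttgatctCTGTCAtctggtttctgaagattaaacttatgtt
Taar7e: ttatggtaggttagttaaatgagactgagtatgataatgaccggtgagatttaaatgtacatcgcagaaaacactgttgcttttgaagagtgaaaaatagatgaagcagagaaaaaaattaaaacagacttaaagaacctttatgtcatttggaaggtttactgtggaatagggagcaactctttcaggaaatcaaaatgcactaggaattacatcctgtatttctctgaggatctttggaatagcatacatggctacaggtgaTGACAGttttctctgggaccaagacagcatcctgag
Stx7: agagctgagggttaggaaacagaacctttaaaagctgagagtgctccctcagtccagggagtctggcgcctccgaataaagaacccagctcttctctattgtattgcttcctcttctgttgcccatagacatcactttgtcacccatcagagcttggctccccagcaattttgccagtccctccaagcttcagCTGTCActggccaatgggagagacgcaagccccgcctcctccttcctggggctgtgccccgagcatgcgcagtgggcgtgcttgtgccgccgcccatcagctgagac

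Promoter sequences were found for all but 10 of the placed members, 128 sequences of 127 genes. The letters TGACAG, searched on both strands, occurred in 26 of the 128 (20.3%), against 19.2% of all 32851 promoters in the table. By family, 21 of 117 Vmn2r promoters (17.9%) and 5 of 11 Taar promoters (45.5%) held them. In Taar7b, Taar7d and Taar7e the match begins at base 265 of the window, after the annotated start, so these related copies share 1 match. The longer site of TGAT directly followed by TGACAG was in no member promoter and in 0.222% of all promoters. The upstream Vmn2r29 start stands apart in composition. Its GC content is 62.3% with 23 CG pairs, the highest of the member promoters, against medians of 38.0% and 1 CG for Vmn2r, 37.3% and 2 for Taar, and 52.7% and 7 for all promoters.

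The depth behind the peak lists was alike: 7618406 tags were kept for MEIS2 replicate 1, 6559629 for replicate 2 and 6337375 without antibody. They gave 78060, 82093 and 9869 peaks on the numbered chromosomes, X and Y. Since each library was called alone, a MEIS2 peak marks tags in local excess, and the control enters by overlap alone. A peak is called reproducible where replicate 1 and replicate 2 peaks share at least 1 bp and no control peak touches the replicate 1 peak. The peak lists cannot check the labelled tissue by expression of its markers.

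MEIS2 peaks were sparse around the receptor genes, and no-antibody peaks were denser there than around other genes. The 52 windows held 238 peaks of MEIS2 replicate 1, 282 of replicate 2 and 65 of the no-antibody library. The density was 20.0 peaks per Mb (17.6 to 22.8) in replicate 1 and 23.7 (21.1 to 26.7) in replicate 2, a mean of 21.9 ± 2.62 (SD, n = 2). The same windows drawn around all protein-coding genes held 35.2 and 34.6 per Mb, so both MEIS2 libraries lay below that level, at 0.570 and 0.686 of it. The no-antibody library went the other way, with 5.47 peaks per Mb (4.22 to 6.98) against 3.07, a ratio of 1.78 (1.38 to 2.27). For each no-antibody peak there were 3.66 replicate 1 and 4.34 replicate 2 peaks in the receptor windows, against 11.5 and 11.3 around all protein-coding genes. In 39 of the 52 windows both MEIS2 libraries had more peaks than the control. The MEIS2 lists are far longer (78060 and 82093 peaks against 9869), and the matching share of all protein-coding windows was not computed. This count therefore cannot show MEIS2 signal beyond the control. The deficit depends on which peaks are counted. When each library was cut to its 5000 peaks with the highest fold, the receptor windows held 23, 19 and 28. The ratios to all protein-coding windows were then 1.27, 1.03 and 1.52, so the deficit was not seen among the strongest MEIS2 peaks. These ratios rest on few peaks and were given no interval, so they show no excess either. The cut also keeps a far larger part of the control list than of the MEIS2 lists.

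The other large chemoreceptor families showed the same order. Vomeronasal type 1 receptors (Vmn1r, 228 genes), which signal through another G protein in apical vomeronasal neurons, had ratios of 0.735 and 0.774 in the MEIS2 libraries and 1.95 in the control. Olfactory receptors (Olfr, 1105 genes), the odorant receptors of the main epithelium, had 0.672, 0.775 and 1.65. The replicate 1 interval of the Vmn2r and Taar windows (0.50 to 0.647) ended below the value of Vmn1r, with an interval of 0.652 to 0.827, while in replicate 2 their intervals overlapped. Few peaks were shared between the families, since 9 replicate 1 peaks lay in both a member window and a Vmn1r window and 3 in both a member window and an Olfr window.

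**Figure D1:**
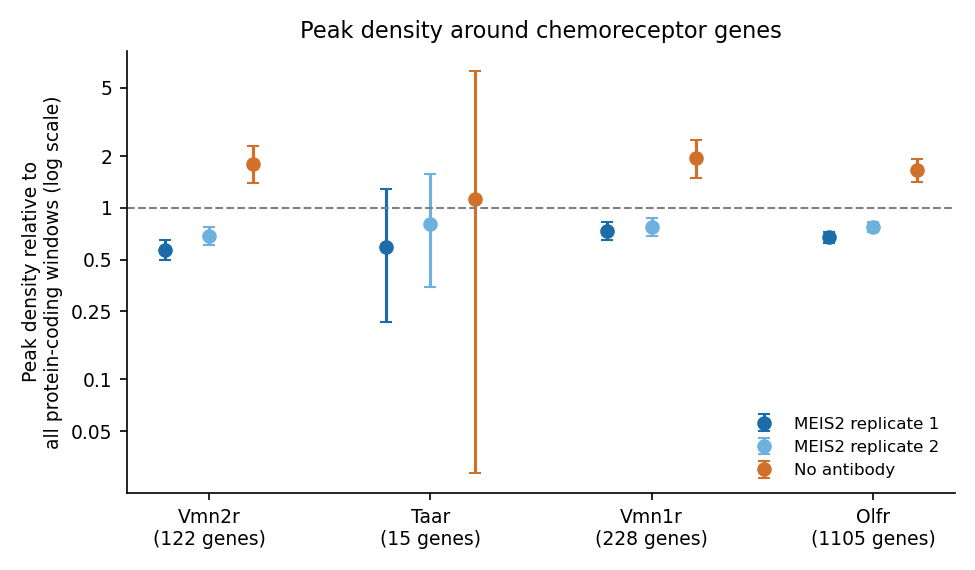
Peak density in windows of 50 kb around 4 chemoreceptor families, divided by the density around all protein-coding genes of the same library, on a log axis. Points are single libraries and bars are exact 95% Poisson intervals; MEIS2 points of Vmn2r, Vmn1r and Olfr lie below 1 and their no-antibody points above 1, while the single Taar window has too few peaks to tell.

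MEIS2 density rose with distance from the receptor genes. Inside member genes replicate 1 had 14.6 peaks per Mb and replicate 2 had 18.4, and within 10 kb of them the values were close to these, 15.1 and 19.4. From 10 to 50 kb away the values were 24.9 and 28.3, and from 200 to 500 kb away they were 38.9 and 38.8, above the level of all protein-coding windows. Both libraries were thus low in the genes and in the nearest 10 kb alike, and the intervals there do not reach those of the outermost band. The no-antibody library showed no such gradient, with 4.67 inside genes, 6.67 from 10 to 50 kb, 3.81 from 50 to 100 kb and 5.19 from 200 to 500 kb. Member gene bodies make up 27.1% of the windows, other genes 12.9% and the rest 60.1%.

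**Figure D2:**
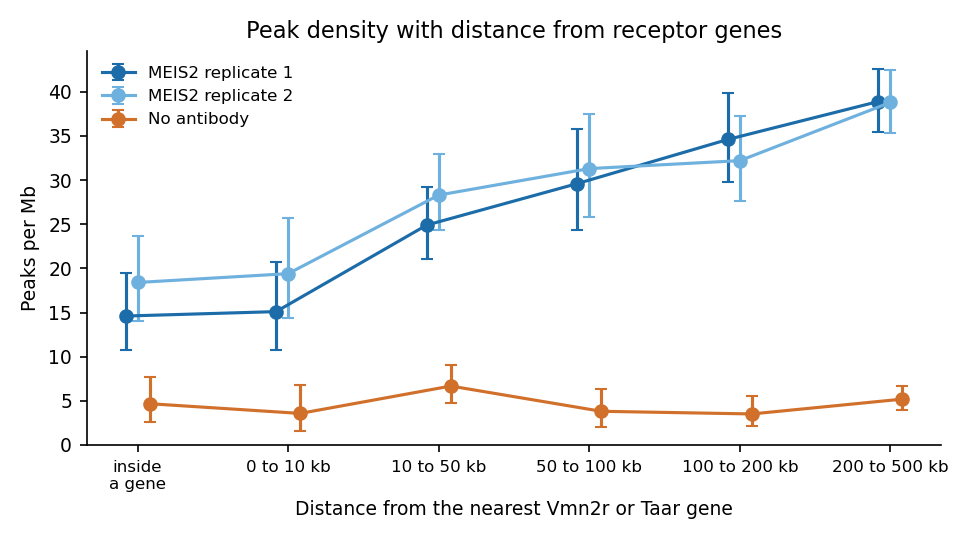
Peaks per Mb inside Vmn2r and Taar genes and in bands of distance from the nearest of them, per library. Bars are exact 95% Poisson intervals; both MEIS2 libraries rise from under 20 per Mb in the genes to 38.9 and 38.8 in the outermost band, while the no-antibody library stays between 3.51 and 6.67.

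The low density was spread over most of the genome's receptor arrays. In replicate 1, 46 of 52 windows were below the density of all protein-coding windows, and in replicate 2, 41 were. In the no-antibody library 33 windows were above it, and 18 had no peak. The matching shares among single windows of all protein-coding genes were not computed, so these counts have no level to be read against. Window densities of the MEIS2 libraries ranked alike (Spearman rho 0.73 over 52 windows), and those of replicate 1 and 2 ranked little like the control (0.105 and 0.299). These are descriptions over windows that share libraries. Vmn2r90 to Vmn2r110 on chromosome 17, with 22 genes, had 11.5 and 17.1 MEIS2 peaks per Mb and 4.62 control peaks. Vmn2r29 to Vmn2r52 on chromosome 7, with 24 genes, held 41, 42 and 13 peaks, or 6.02 per Mb in the control. Both long arrays were thus below the general MEIS2 level and above the general control level. Vmn2r1 to Vmn2r7 on chromosome 3, the group that is co-expressed with the variable receptors, held 11, 18 and 5 peaks, 7 of them reproducible.

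Some windows stood far from these values. Vmn2r69 (chr7:85356376-85465676) held 13 replicate 1, 13 replicate 2 and 2 no-antibody peaks in 109 kb, which is 119 MEIS2 peaks per Mb in each library. Several of its replicate 1 peaks lay close together, in chr7:85363925-85366299 and chr7:85454328-85460665, so they need not be separate sites. Adjacent replicate 1 peaks can overlap the same replicate 2 peak, and each then counts as reproducible. Vmn2r84 to Vmn2r87 (chr10:130335800-130547379) held 13, 10 and 1, and Vmn2r114 to Vmn2r117 (chr17:23240934-23529597) held 12, 13 and 4. Each of these 3 windows had 9 reproducible peaks. At the other end, the window of Vmn2r41, Vmn2r42 and Vmn2r43 (chr7:8087905-8310599) had no peak in any library, and a count of 0 over its 223 kb allows a density of up to 13.5 per Mb. Vmn2r129 on chromosome 4 had no MEIS2 peak and 1 no-antibody peak. Vmn2r100 to Vmn2r103 had 0, 4 and 2 peaks over 408 kb, with none reproducible.

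**Figure D3:**
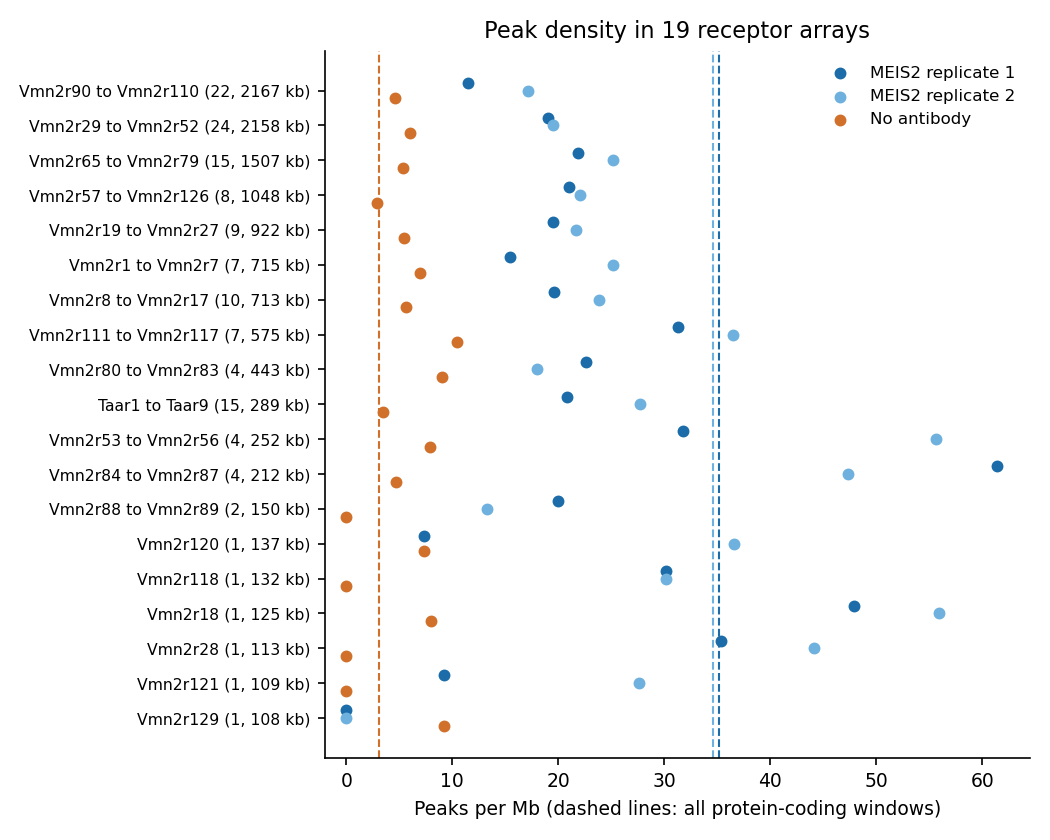
Peaks per Mb in each of the 19 arrays, with the number of genes and the summed window length in brackets, longest first. Dashed lines are the densities around all protein-coding genes, 35.2, 34.6 and 3.07; the 3 longest arrays lie left of the MEIS2 lines and right of the control line, and the scatter is widest in short arrays that hold few peaks.

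The MEIS2 peaks that were present were not weak. Of the replicate 1 peaks in the receptor windows 178 of 238 (74.8%) overlapped a replicate 2 peak, against 65.0% around all protein-coding genes. From the side of replicate 2 the share was 179 of 282 (63.5%), against 67.3%. The median fold enrichment, which sets the pileup at the summit against that expected locally, was 7.58, 5.89 and 4.91 in the 3 libraries, against 6.02, 5.74 and 5.10 around all protein-coding genes. Peaks of at least 10-fold made up 28.6% of the replicate 1 peaks and 18.1% of the replicate 2 peaks, against 13.7% and 5861 of 58182 peaks around all protein-coding genes, and none of the 65 control peaks. The local background behind the fold differed too. The expected pileup had a median of 0.929 in replicate 1 and 0.599 in replicate 2, below 1.14 and 0.713 for all protein-coding windows, but 2.05 in the no-antibody library, above 1.53. The share of peaks with an expected pileup above 5 went the other way. It was 5.04% against 2.97% in replicate 1, 3.19% against 1.9% in replicate 2, and 0% against 2.81% in the control. The part of this background in the fold values was not tested.

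MEIS2 peaks in the receptor windows more often lay on a no-antibody peak. The share was 31 of 238 replicate 1 peaks, 13.0% (9.02 to 18.0), against 4.22% around all protein-coding genes. In replicate 2 it was 39 of 282, 13.8% (10.0 to 18.4), against 5.26%. The shares around Vmn1r genes were 12.5% and 15.5%, and around Olfr genes 82 of 802 peaks and 107 of 910. The share of the control peaks that a MEIS2 library also called was close to that elsewhere: 32 of 65 (49.2%) were in replicate 1 and 39 (60.0%) in replicate 2, against 49.1% and 59.8%. The higher share of MEIS2 peaks on control peaks thus follows from the lower MEIS2 and higher control density, and is not a separate result. MEIS2 peaks on a control peak were the taller ones, with a median pileup of 48 in replicate 1 against 15 for the rest, and 28 against 10 in replicate 2. Among replicate 1 peaks of at least 10-fold, 17 of 68 (25.0%) lay on a control peak, against 15.8% around all protein-coding genes. Requiring that both peaks share 50% of their length lowered the replicate 1 share to 5.88%.

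The strongest sites divided evenly. Of the 10 replicate 1 peaks with the highest fold enrichment, 5 overlapped a no-antibody peak. The highest, at chr7:12536404-12536986 in the Vmn2r53 window, had 25.6-fold in replicate 1, 22.5 in replicate 2 and 6.83 in the control. The next, at chr7:85723062-85723531 near Vmn2r72, had 23.6, 19.5 and 4.26, and that at chr17:18607401-18608083 near Vmn2r96 had 21.7, 18.7 and 4.84. All 3 were thus called without antibody. The other 5 had no control peak. They were chr7:41815719-41816281 near Vmn2r58 (21.6 and 19.9), chr17:17686572-17687046 near Vmn2r90 (21.5 and 19.2), chr7:85387646-85388306 near Vmn2r69 (18.9 and 16.4), chr5:109160709-109161304 inside Vmn2r13 (18.8 and 19.6) and chr7:41429217-41429826 inside Vmn2r57 (18.5 and 17.7). In these 5 the replicates differed by under 3 units of fold.

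**Figure D4:**
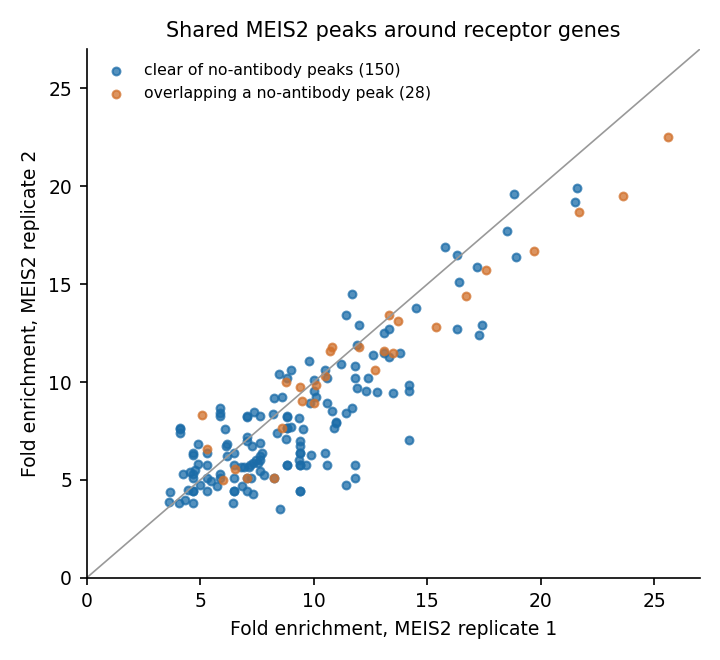
Fold enrichment in MEIS2 replicate 1 (x) and replicate 2 (y) of the 178 replicate 1 peaks in the receptor windows that overlap a replicate 2 peak; the line marks equal values. The 28 peaks on a no-antibody peak (orange) run through the range of the 150 clear ones (blue) and hold the 3 highest replicate 1 values, and of the 150 clear peaks 105 are higher in replicate 1.

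A reproducible MEIS2 peak lay in or within 50 kb of 93 of the 137 receptor genes (67.9%), against 93.2% of all protein-coding genes. Vmn2r genes had one in 88 of 122 cases and Taar genes in 5 of 15. The median was 1 reproducible peak per receptor gene against 4 per protein-coding gene. With any replicate 1 peak counted the figure was 116 genes (84.7%) against 96.7%, and with any replicate 2 peak 125 (91.2%) against 97.7%. The no-antibody library again ran opposite, with 63 genes (46.0%) against 26.7%. Genes of an array share windows and peaks, so these counts are not over independent genes. In 9 Vmn2r genes no library had a peak in the gene or within 50 kb: Vmn2r31, Vmn2r41, Vmn2r42, Vmn2r43, Vmn2r50, Vmn2r51, Vmn2r73, Vmn2r93 and Vmn2r105. The matching share of all protein-coding genes is not given here, so this count has no level to be read against.

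Receptor genes rarely had a peak in the gene body. Reproducible peaks were in the bodies of 21 members (15.3%), all Vmn2r, against 60.2% of protein-coding genes, although the median member is 23.0 kb long against 17.2 kb. Replicate 1 alone had a peak in 29 bodies (21.2%) against 69.3%, and replicate 2 in 38 (27.7%) against 66.8%. The control had one in 13 (9.49%) against 7.32%. The strongest peak after Vmn2r13 and Vmn2r57, given above, was in Vmn2r29 (chr7:7222364-7222846, 16.3 and 12.7). Peaks in Vmn2r56 (chr7:12700101-12700413) and Vmn2r7 (chr3:64697778-64698012) were above 10-fold in both libraries. Vmn2r60 and Vmn2r35 had the most, 4 each. Of the receptors with a known ligand, 2 serve as examples. Vmn2r26, a receptor of peptide ligands of the major histocompatibility complex, had 0 replicate 1, 1 replicate 2 and 0 control peaks in or within 50 kb of it. Vmn2r116, the receptor of the male pheromone ESP1, had 4, 3 and 2, none of the MEIS2 peaks in its body.

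Peaks at gene ends were rarer still. A reproducible peak summit lay within 1 kb of either end of 2 members (1.46%), Vmn2r46 and Vmn2r69, against 52.6% of protein-coding genes. At Vmn2r46 (chr7:9753996-9754553) the fold was 8.50 in replicate 1 and 3.50 in replicate 2, and at Vmn2r69 (chr7:85416500-85416715) it was 8.23 and 5.10, with the replicate 1 summit 969 bp from the gene. Counting each library alone, 5 members (3.65%) had such a peak in replicate 1 against 60.8%, 7 (5.11%) in replicate 2 against 55.7%, and 1 (0.730%) in the control against 0.271%. Those of 1 MEIS2 library only were at Taar7e and Vmn2r114 in replicate 1, and at Taar5, Vmn2r108, Vmn2r4 and Vmn2r7 in replicate 2, all between 4.70- and 6.47-fold. Peaks in the receptor windows were also seldom at the ends of any gene: 10.7% of reproducible peaks were, against 36.3% around all protein-coding genes.

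The exception among starts was Vmn2r29, whose GC-rich upstream promoter, printed above, lay under a peak in all 3 libraries. Its sequence shares the stretches cagagagcacgccgg and ctccaaggggtcgga with a promoter of the neighbour Clcn4 (chr7:7299508-7299807), which no peak overlapped. The extent of this likeness was not measured, and how reads were placed between the copies is not known here. Replicate 1 had 19.7-fold with a pileup of 114 (chr7:7277675-7278471), replicate 2 had 16.7-fold with a pileup of 80 (chr7:7277710-7278452), and the no-antibody library had 8.50-fold with a pileup of 17 (chr7:7278054-7278363). The summits lay 69, 62 and 64 bp from the annotated start. This was the control peak with the highest fold in all the receptor windows, so by definition the site is not among the reproducible peaks. It was also the 1 of 128 member promoter sequences that a peak overlapped in any library. The share of 0.781% compares with 38.0% of all promoters in replicate 1, 32.2% in replicate 2 and 0.0731% in the control.

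The Taar array occupies 1 window (chr10:23870406-24159534) of 289 kb with 15 genes, and held 6 replicate 1 peaks, 8 replicate 2 peaks and 1 no-antibody peak. Its density was 20.8 (7.62 to 45.2), 27.7 (11.9 to 54.5) and 3.46 (0.0876 to 19.3) per Mb, so a difference from all protein-coding windows was not detectable at these counts. All 3 reproducible peaks lay in the flanks. They were at chr10:23876113-23877392 beyond Taar1 (6.81 and 5.66), at chr10:23901937-23902247 in Vnn1, a pantetheinase gene (9.41 and 6.38), and at chr10:24149244-24149747 (11.4 and 8.41), 202 bp from an end of Stx7 and over part of the promoter printed above. From Taar1 to Taar9, a stretch of 189 kb, each MEIS2 library had 3 peaks and none was shared between them.

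The Taar genes lie so close together that their windows overlap, and neighbouring genes count the same peaks. Taar1, the receptor expressed in brain, had 3 replicate 1, 5 replicate 2 and 0 control peaks in or within 50 kb of it, 2 of them reproducible and both in the flank. Taar2 and Taar3 had 2, 3 and 0 each with 1 reproducible peak, and Taar8c and Taar9, at the other border, also had 1. The 10 genes between, from Taar4, a receptor of phenylethylamine, to Taar8b, had 0 to 3 replicate 1 and 1 or 2 replicate 2 peaks and no reproducible one. Taar5, the receptor of trimethylamine, had a replicate 2 peak inside the gene 162 bp from its start (chr10:23970817-23970980, 5.10-fold) that replicate 1 did not call. Taar7e had a replicate 1 peak 711 bp from one end (chr10:24039254-24039427, 6.47-fold) that replicate 2 did not call. The 1 control peak (chr10:24057566-24058124, 4.47-fold), nearest to Taar7f, overlapped a replicate 2 peak of 5.10-fold.

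**Figure D5:**
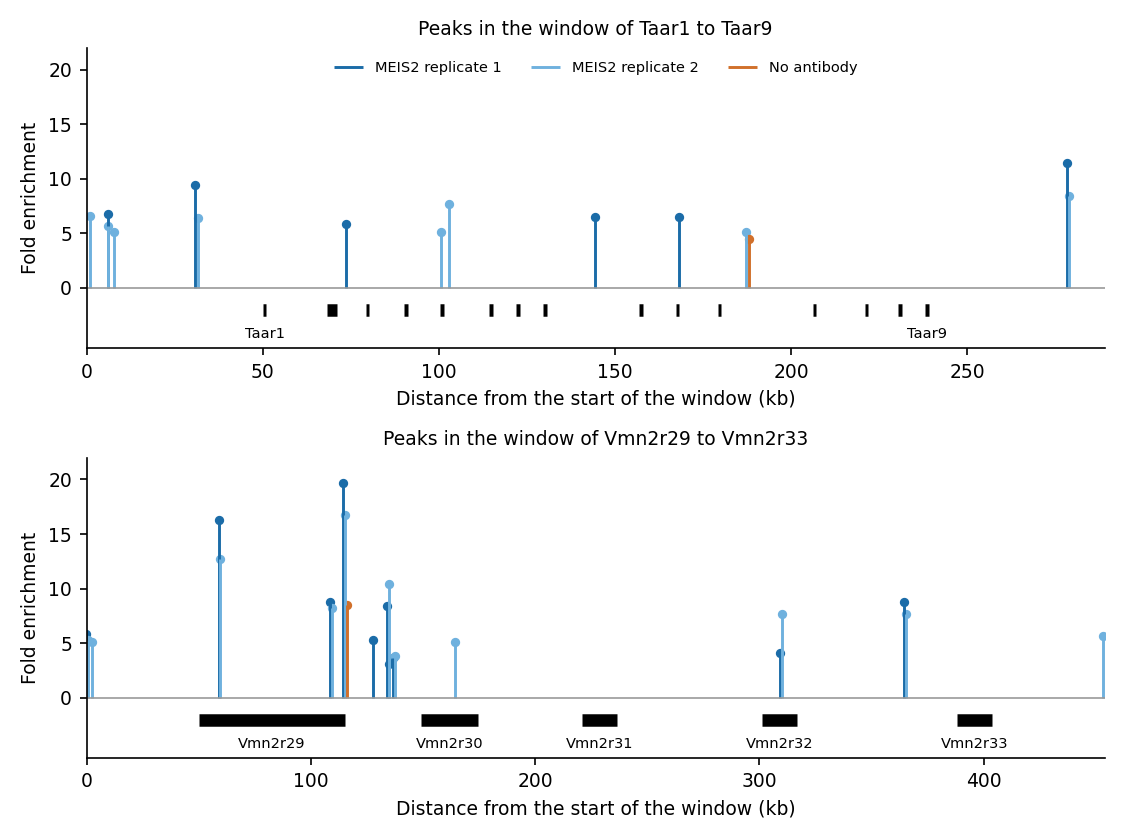
Peaks of the 3 libraries in the windows of Taar1 to Taar9 (top) and Vmn2r29 to Vmn2r33 (bottom), as lines at their summits with the height of their fold enrichment; receptor genes are black bars, and lines of the libraries are shifted slightly so that none hides another. Between Taar1 and Taar9 no MEIS2 peak is paired, while the upstream end of Vmn2r29 carries peaks of 19.7, 16.7 and 8.50 in the 3 libraries.

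Several reproducible peaks in the receptor windows belonged by position to other genes. Of the 150, 13 had their summit outside the members and within 1 kb of an end of another gene, and 1 more, inside Vmn2r60, lay 565 bp from an end of Gm2308. Besides Stx7 these included Rnf212, a meiotic crossover factor (chr5:108774699-108775197, over 10 and 6.38), Plpp2, a lipid phosphatase (chr10:79533282-79533950, 7.22 and 5.08), and Mier2 (chr10:79540335-79541029, 4.92 and 5.79). Clcn4, a chloride transporter gene beside Vmn2r29, had one of 3.63 and 3.85. Others lay at pseudogenes or long noncoding RNA genes, among them 3 in the dense window of Vmn2r84 to Vmn2r87, at Ctdsp2-ps (11.2 and 10.9), Gm18754 (13.8 and 11.5) and Gm18755 (10.9 and 7.65). Summits within 1 kb of any non-member gene end were then dropped, both here and around all protein-coding genes. The mean MEIS2 ratio was 0.803, and 87 members still had a reproducible peak. The comparison set lost the larger share of its peaks. Around all protein-coding genes 29.1% of replicate 1 and 26.4% of replicate 2 peaks lay at a gene end. In the receptor windows 11.8% and 8.16% did. Of 146 Vmn2r pseudogenes, 15 had a reproducible peak in the body and 5 at an end. Of the 122 placed Vmn2r genes 21 and 2 did, and of protein-coding genes 60.2% and 52.6%. The no-antibody library had a peak in 7 of the 146 pseudogene bodies. It had one in 13 of the 122 Vmn2r bodies and in 7.32% of protein-coding gene bodies.

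The genes through which these receptors signal had peaks at about the level of other genes when their surroundings were counted. Of 24 genes in the signalling list, 21 had a reproducible peak in or within 50 kb, against 93.2% of protein-coding genes. At gene ends 6 of 24 did, against 52.6%. They were Gnao1, the Go subunit of Vmn2r neurons (5.06 and 4.93), Gnai2, its counterpart in Vmn1r neurons (7.42 and 8.52), Trpc2, the vomeronasal transduction channel (3.72 and 4.13), and 3 olfactory transduction genes, the G-protein subunit Gnal (11.9 and over 10), the adenylyl cyclase Adcy3 (7.19 and 5.73) and the channel subunit Cnga4 (11.6 and 8.76). Several of these genes are also used in brain. H2-M10.5, one of the class Ib histocompatibility genes expressed with Vmn2r receptors, had no peak in any library within 50 kb. No gene of the list had a control peak at an end.

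Genes that regulate receptor choice and sensory neuron identity were counted the same way. All 12 listed regulators had a reproducible peak in or within 50 kb, near the 93.2% of protein-coding genes, and 10 had one at an end, where 52.6% of protein-coding genes did. Examples are Lhx2, a LIM homeodomain factor needed for olfactory receptor expression (9.06 and 11.3), Lbr, the lamin B receptor (over 10 and 7.68), Kdm1a, a histone demethylase (8.17 and 8.62), and Bcl11b, a zinc-finger factor of vomeronasal and striatal neurons (4.84 and 3.92). Ldb1 and Ebf2 had none at an end. These genes have roles outside the nose, and the list is too short to set apart from other genes.

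The receptor copies are similar in sequence, and the placing of reads that match several copies was not given in the sources used here. Values of single Vmn2r and Taar genes, and the absence of peaks at some of them, are therefore uncertain in proportion to that similarity, which was not measured. The same limit holds for the densities, distance bands and gene counts of the families. They use the full window length, with no correction for sequence where reads cannot be placed. Its part in the low MEIS2 density was not tested.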

How the data were processed

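CUT&Tag peak lists of 2 MEIS2 libraries and 1 no-antibody library were grouped by the labels. MACS 2.2.7.1 called each library by itself at a q cutoff of 0.05, without a control, per the file headers. Per the submitters' processing notes, the tools were Bowtie2 2.3.4, MACS2 2.1.4, Picard and Trimmomatic on mm10, a MACS version other than that of the headers. The headers give 74259592, 79760948 and 72763762 tags before repeated positions were removed. As signal, the authors deposited the pileup at each summit, which depends on depth. Their deposited fold is the ratio of that pileup to the local expectation, with 1 added to each. Of the deposited −log10 values, that of q served for a stricter list and that of the p-value was not used.

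Genes came from a RefSeq table of GRCm38.p6 without exons, so peaks could not be split into exonic, intronic and UTR ones. Genes placed before 3 Mb on chromosomes 1 to 19 and X, where no library has a peak, were left out, since such positions are those of unplaced sequences. Windows, overlaps of at least 1 bp and gene ends (within 1 kb) were computed in Python 3.11.15 with numpy 2.4.6, pandas 2.3.3 and scipy 1.17.1, by functions tested on simulated data. The expected pileup was computed as pileup plus 1 over fold, minus 1. Intervals are exact Poisson or Clopper-Pearson, and a count of 0 was given a limit of 3 counts.

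The members and lists were chosen with earlier results of these data known. Named were every array by its counts, the 10 replicate 1 peaks of highest fold, every Taar gene, Vmn2r genes with peaks in the body or at an end, the 3 genes with the most peaks (Vmn2r69, Vmn2r87 and Vmn2r86, with 9, 8 and 7 reproducible), neighbours with a peak at an end, and 2 gene lists; the best peak of each window was described where it falls under these. Vmn2r26, Vmn2r116 and the windows singled out by their counts were chosen after their values were seen. Peaks in windows of 10 and 100 kb, stricter lists, all biotypes and each MEIS2 library left out were alternatives.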

Additional observations from a re-analysis of the deposited data

How the results depend on the processing

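Of 56 values under other settings, 42 stayed close, 13 moved and 1 changed direction. Some of the 42 could not have moved. Leaving out a MEIS2 library does not touch the no-antibody density and ratio. Leaving out replicate 2 does not touch the replicate 1 share. With 2 libraries, each MEIS2 density or ratio always lies within the SD of their mean. Densities, ratios and shares were judged against their replicate SD or counting interval, and the count of genes, which has no such spread, by whether it stayed within 1.5 times. With windows of 10 kb the mean MEIS2 density was 16.8 per Mb, the no-antibody density 4.19, the mean MEIS2 ratio to all protein-coding windows 0.465, and 39 genes had a reproducible peak. With −log10 q of at least 5 the densities were 16.2 and 2.02, the MEIS2 ratio 0.713 and the share of replicate 1 peaks on a control peak 7.18%. With 50% reciprocal overlap that share was 5.88%. With summits at non-member gene ends dropped from the receptor windows and from all protein-coding windows, the MEIS2 ratio was 0.803. Among the 5000 peaks of highest fold per library the densities were 1.77 and 2.36, the MEIS2 ratio turned to 1.15, and 15 genes had a reproducible peak; each list then holds fewer peaks. The no-antibody ratio stayed between 1.47 and 1.85 under every setting run. Apart from the shorter lists, the cause of these shifts was not tested. Leaving out a MEIS2 library gave densities of 20.0 and 23.7, ratios of 0.570 and 0.686, shares of 13.0% and 13.8%, and 105 and 114 genes. These gene counts take any peak of the remaining library that touches no control peak. They are thus a looser measure than the count of genes with a reproducible peak. No paired analysis was possible because there is 1 control library, and its replicate number was given in accession order, which pairs no samples. Binding of the antibody to other proteins is outside what a library without antibody can measure, and at most 15 peaks per window and library limit what single windows can show.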
